A study of Mus musculus with 12 samples.

Results

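The expression of extracellular matrix (ECM) and cell adhesion genes was compared between TGF-β1-treated and vehicle-treated pancreatic stellate cells (PSCs) that lacked PKN2. PSCs are fibroblast-like cells of the pancreas that store vitamin A at rest and lay down matrix when activated. PKN2 is a serine/threonine kinase. A targeted sequencing panel listed 420 genes, and those that reached a normalized count of 10 in 3 or more of the 6 PKN2 KO libraries were taken, which gave 228 genes. The other 192 genes were under that limit, and 89 of them had no read in any PKN2 KO library.

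PKN2 KO PSCs kept for 72 h in TGF-β1 (5 ng/ml) formed 1 group and PKN2 KO PSCs kept in vehicle for the same time the other, with 3 libraries each, labelled A, B and C. WT PSCs with TGF-β1 and with vehicle, again 3 libraries each, were used to test whether the response differed with PKN2 present. The cells came from the pancreas of a C57BL/6 mouse that carried floxed PKN2 alleles and a tamoxifen-inducible Cre recombinase expressed from the Rosa26 locus, and were immortalized with SV40 large T antigen. PKN2 KO cells lost PKN2 after a pulse of 4-hydroxytamoxifen, and all groups represent 1 cell line in 2D culture. The labels do not say what A, B and C stand for. The study's methods describe several dishes per condition and count n in cell culture as biological replicates, so p-values measure the spread between cultures of 1 line.

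TGF-β1 is the main cytokine that turns fibroblasts and stellate cells into contractile, matrix-producing myofibroblasts. It binds a pair of receptor kinases, which phosphorylate SMAD proteins that then act on target genes together with other factors, such as AP-1 and the YAP partners of the TEAD family. Known targets in fibroblasts include collagens, collagen-crosslinking enzymes, integrins, matricellular proteins and inhibitors of proteases. The design asks which of these genes respond to TGF-β1 when PKN2 is absent.

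The 6 PKN2 KO libraries held between 1091792 and 1335361 reads on the panel, and fold changes below are differences of log2(normalized count + 1), which understates the change of genes with few reads. The authors' factors are taken from reference genes, and after them the normalized totals of vehicle libraries were 1279635 for A, 943559 for B and 1359157 for C, against 1720430, 1037240 and 1386595 with TGF-β1. Library B was thus the lowest in both groups, and 139 of the 228 genes in vehicle and 146 with TGF-β1 had their lowest value in it. Its part in the results was examined by leaving out each library, by other scalings and by fitting the letter as a block, and not otherwise. Among markers of mesenchymal matrix, 7 of 8 reached the limit. The summed normalized count of the 8 was 262452 to 430655 in vehicle and 264291 to 559994 with TGF-β1. *Dcn*, one of the 7, added little to these sums. It had 35.2, 15.5 and 55.1 in vehicle and only 2.74, 3.44 and 4.88 with TGF-β1. *Lum*, a keratan sulfate proteoglycan, was under the limit, with at most 1.41. Among defining markers of other cells, the epithelial cadherin *Cdh1* was at most 0.86 and the endothelial cadherin *Cdh5* had no read, while the endothelial and platelet marker *Pecam1* had 2.34, 6.36 and 1.06 in vehicle and 5.47, 9.46 and 14.6 with TGF-β1. The sum over 10 epithelial markers was 16.4 to 32.5 in vehicle and 37 to 61.6 with TGF-β1, without overlap. *Lamb3*, one of the 10, made up 35.6, 19.8 and 34.2 of the latter. The part of epithelial RNA in this was not tested, and 2 of the 10 had no read. The sum over 10 endothelial markers was 14.8 to 24.7 in vehicle and 20.5 to 24.1 with TGF-β1, and over 8 neural markers it was at most 3.18. That over 13 leukocyte markers was 200 to 383 in vehicle and 52.4 to 84.8 with TGF-β1, mainly from the integrin genes *Itgb7* and *Itgb2*, both of which fell. The part of leukocyte RNA in this was not tested, and 5 of the 13 markers had no read. *Pkn2* itself and the stellate cell markers *Des*, *Gfap* and *Acta2* were not on the panel, so neither PKN2 loss nor these markers could be checked in these data.

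With TGF-β1, 45 of the 228 genes rose and 65 fell in PKN2 KO PSCs (limma with Benjamini-Hochberg adjustment over 228 genes, threshold 0.05). These were 19.7% and 28.5% of the genes tested, so that 48.2% changed in either direction. In bulk RNA, fewer cells that express a gene and less RNA per cell cannot be told apart. Of the risers 32, and of the fallers 49, changed by at least 1 on the log2 scale, and 19 and 30 by at least 2. Every called gene moved the same way in the 3 pairs of libraries with the same letter. The calls were made on these same libraries, so this is no separate support. In 120 genes (52.6%) the 3 TGF-β1 libraries did not overlap the 3 vehicle libraries, 49 above (21.5%) and 71 below (31.1%). The median change of all 228 genes was -0.13 on the log2 scale, and another scaling moved it to between -0.33 and 0.01, while the sign of all 110 called genes was the same under the 3 other scalings.

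The limit itself fixed part of these counts. A group of 15 genes reached it in the 3 vehicle libraries and in none with TGF-β1, namely *Adam33*, *Adamts9*, *Amigo2*, *Cd34*, *Cdh26*, *Col14a1*, *Col4a6*, *Dcn*, *Entpd1*, *Itga11*, *Itgb2*, *Itgb8*, *Mmp15*, *Pcdh9* and *Tnxb*. Another 4, *Itga2*, *Lamb3*, *Mmp9* and *Selp*, reached it with TGF-β1 alone. These 19 genes had to differ, so their values are given as a description with no p, although the 15 count among the fallers and the 4 among the risers. Among the other 209 genes, 41 rose and 50 fell, 43.5% called. They still hold genes at the limit in the 3 libraries of a group and in only some of the other. *Smoc2*, *Adamtsl2* and *Col7a1* are such genes, which the limit also favored. Just inside the limit, at 3 libraries, lay 20 genes, among them *Col11a2* with vehicle values of 3.52, 10.6 and 6.36 and TGF-β1 values of 10.9, 11.2 and 8.54. Just outside, at 2 libraries, lay 14 genes, among them *Mmp13* with 3.52, 2.12 and 0 in vehicle and 27.4, 6.88 and 13.4 with TGF-β1.

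**Figure D1:**
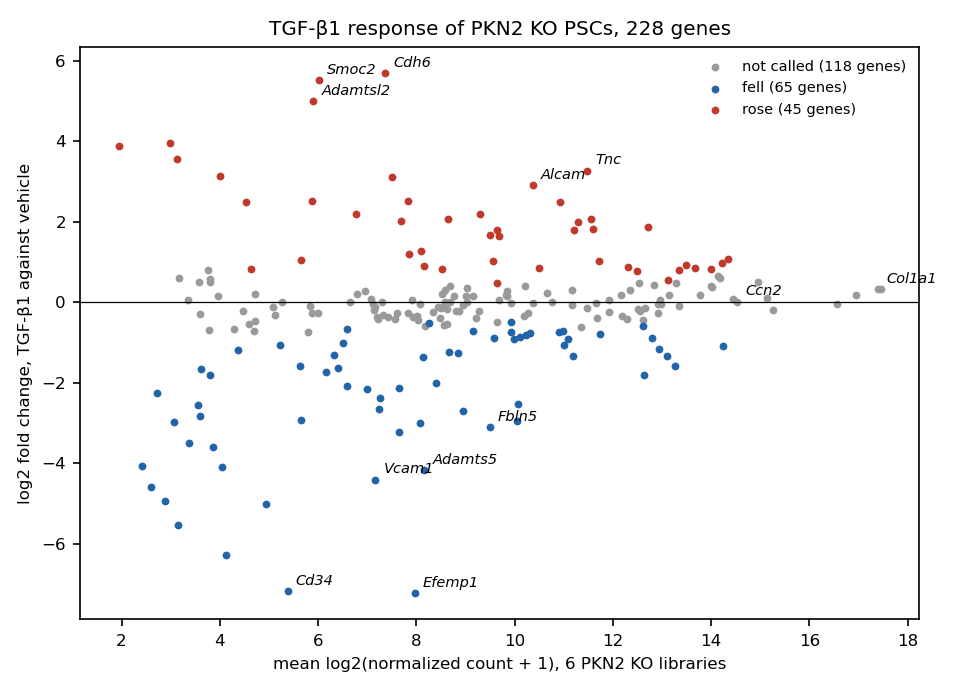
Log2 fold change with TGF-β1 in PKN2 KO PSCs (vertical axis) against the mean log2(normalized count + 1) of the 6 libraries (horizontal axis), 1 point per gene, colored by call. The 45 genes that rose and the 65 that fell spread over the range of levels, while *Col1a1* and *Ccn2*, at the right, lie near 0.

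The largest rise was that of *Cdh6*, a classical cadherin of cell-cell junctions. Its normalized counts were 17.6, 17.7 and 32.9 in vehicle libraries A, B and C and 1368, 997 and 1194 with TGF-β1. The groups were far apart, and the change of 5.70 ± 0.28 (SE) on the log2 scale (adjusted p = 1.35e-09) corresponded to a 51.8-fold higher value. *Smoc2*, a calcium-binding matricellular protein of the SPARC family, went from 10.5, 4.95 and 11.7 to 611, 348 and 388, or 45.7-fold (log2 5.52). *Adamtsl2*, a secreted protein that binds fibrillin microfibrils, went from 12.9, 7.07 and 9.54 to 401, 289.7 and 326, or 31.9-fold (log2 4.99). None of the 3 genes was above 32.9 in any vehicle library or under 289.7 in any TGF-β1 library. *Smoc2* and *Adamtsl2* were not at the limit in all vehicle libraries and met it through TGF-β1, so they are given with no p.

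The largest fall was that of *Efemp1*, a fibulin of the matrix. It had 3007, 2559 and 3678 normalized counts in vehicle and 19.1, 19.8 and 19.5 with TGF-β1, a 149-fold lower value (log2 -7.22 ± 0.23, adjusted p = 9.78e-12). *Cd34*, a sialomucin found on progenitor cells and on fibroblasts of resting tissue, went from 419.6, 442 and 668 to 6.84, 4.3 and 0, a change of -7.17 on the log2 scale that its choice through the vehicle group fixed in direction. The spread of *Cd34* lay in the TGF-β1 libraries, where C had no read.

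Promoter sequence is shown for the 2 largest risers and the 2 largest fallers that have an entry, as the genes with the most extreme responses. The 250 bases before the transcription start were taken from RefSeq (GRCm38.p6, the build also called mm10) and are written 5′ to 3′ on the gene's strand. *Cdh6* lies on the minus strand (chr15:13173676-13173925), and *Adamtsl2* (chr2:27079129-27079378), *Efemp1* (chr11:28852955-28853204) and *Cd34* (chr1:194938571-194938820) on the plus strand. Capitals mark a motif match.
Cdh6: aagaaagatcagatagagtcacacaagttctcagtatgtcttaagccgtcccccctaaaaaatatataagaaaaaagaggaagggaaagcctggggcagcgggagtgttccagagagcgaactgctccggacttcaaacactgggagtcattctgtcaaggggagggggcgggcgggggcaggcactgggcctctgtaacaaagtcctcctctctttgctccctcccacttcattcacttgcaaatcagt
Adamtsl2: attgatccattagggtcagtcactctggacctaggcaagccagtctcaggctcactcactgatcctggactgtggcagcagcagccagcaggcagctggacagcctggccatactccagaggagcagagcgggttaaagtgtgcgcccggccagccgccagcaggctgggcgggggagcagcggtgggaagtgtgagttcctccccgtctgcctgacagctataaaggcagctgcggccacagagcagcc
Efemp1: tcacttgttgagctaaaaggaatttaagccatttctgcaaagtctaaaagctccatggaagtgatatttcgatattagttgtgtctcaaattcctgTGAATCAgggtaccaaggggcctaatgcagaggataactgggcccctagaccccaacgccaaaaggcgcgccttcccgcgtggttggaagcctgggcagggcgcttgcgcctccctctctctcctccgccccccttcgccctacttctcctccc
Cd34: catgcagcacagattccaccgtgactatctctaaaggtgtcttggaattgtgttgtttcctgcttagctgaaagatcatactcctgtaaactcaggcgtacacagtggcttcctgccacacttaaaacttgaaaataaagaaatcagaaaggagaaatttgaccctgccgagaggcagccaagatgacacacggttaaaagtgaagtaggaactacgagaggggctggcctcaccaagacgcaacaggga
Both strands were searched for TGANTCA (AP-1), GGAATG (TEAD) and the palindrome GTCTAGAC (SMAD), which do not overlap one another. N stands for any base, so the pattern is wider than a single AP-1 site. The only match was TGAATCA in *Efemp1*, 154 to 148 bases before the start. It has A at the open position, so it fits the wide pattern and need not be an AP-1 site. Of all 32851 promoter windows, 6.75% held TGANTCA, 12.6% GGAATG and 0.167% GTCTAGAC. A window was found for 148 of the 228 genes. They had 171 windows, of which 4.68% held TGANTCA and 9.94% GGAATG. Of the 32 windows of risers, 6.25% (2) and 12.5% (4) did, of the 55 windows of fallers 7.27% (4) and 5.45% (3), and of the 84 windows of genes not called 2.38% (2) and 11.9% (10). Differences between these sets were not tested. None of the windows of the genes tested held GTCTAGAC. A match is a run of letters and not a bound site.

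**Figure D2:**
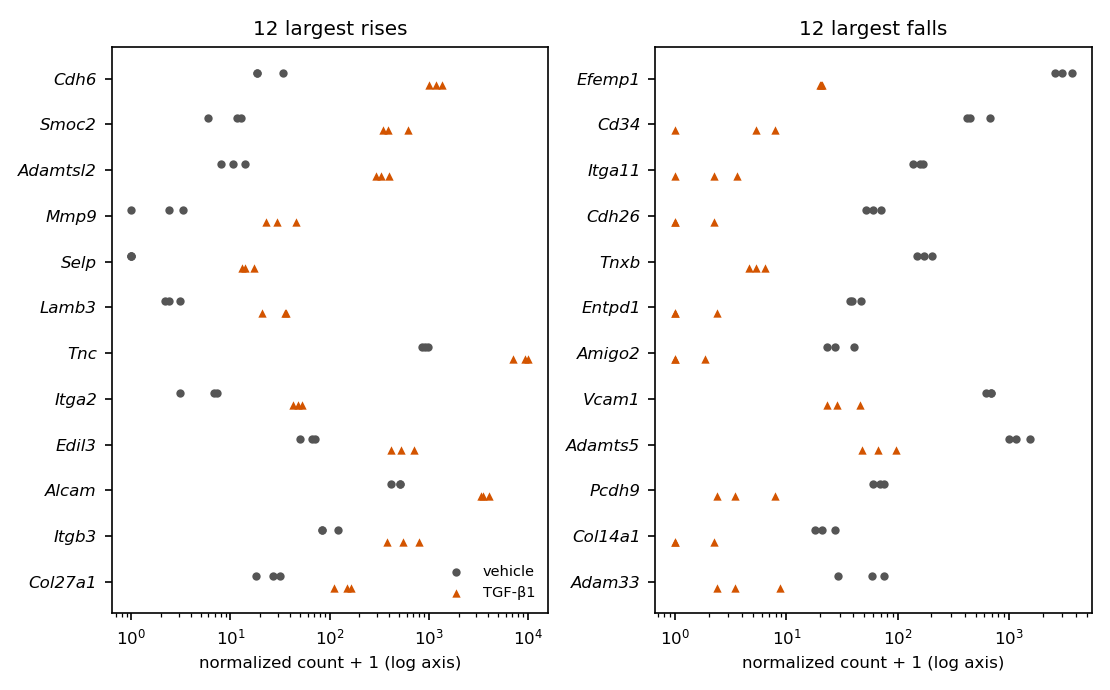
Normalized count + 1 (log axis) in each PKN2 KO library for the 12 largest rises (left) and the 12 largest falls (right), with circles for vehicle and triangles for TGF-β1. Only genes whose 3 TGF-β1 libraries lie apart from the 3 vehicle libraries could be chosen, so this separation is no result. Genes set apart by the limit are among them. Points at 1 stand for libraries with no read.

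Several of these genes had few reads in 1 group, so only a bound can be given, from a floor of 3 reads per library. *Selp*, which encodes P-selectin, had no read in any vehicle library and 16.4, 12.9 and 12.2 normalized counts with TGF-β1, at least 4.71-fold higher. *Lamb3*, a laminin chain best known from epithelial basement membranes, went from 1.17, 1.41 and 2.12 to 35.6, 19.8 and 34.2, at least 10.2-fold higher, and the vehicle values stand for 1 or 2 reads. *Itga11*, a collagen-receptor subunit of fibroblasts, had 166, 156 and 137 in vehicle and 0, 2.58 and 1.22 with TGF-β1, the latter at most 3 reads. *Cdh26*, a cadherin, went from 50.4, 59.4 and 69.9 to 0, 0 and 1.22, at least 17.4-fold lower. *Entpd1*, an enzyme that degrades extracellular ATP, went from 36.3, 38.2 and 45.6 to 1.37, 0 and 0, at least 11.6-fold lower. *Amigo2*, an adhesion molecule of the immunoglobulin superfamily, went from 39.8, 26.1 and 22.3 to 0, 0.86 and 0, at least 8.53-fold lower. In all of these the lower group was at 3 reads or fewer. The limit and the naming rule required the 2 groups to be separate, so the separation is no result.

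Fibrillar collagens form the tensile fibrils of the matrix. Of 10 tested, 4 rose, 1 fell and 5 were not called, so that 50% were called against 48.2% of all genes. The median change was 0.47 against -0.13 for all 228 genes. *Col27a1* went from 25.8, 30.4 and 17 to 111, 164 and 149 (5.68-fold, adjusted p = 1.84e-05) and *Col5a3* from 246, 291 and 347 to 1667, 1066 and 1376 (4.61-fold, adjusted p = 1.62e-07). *Col5a2*, a chain of the collagen that sets fibril diameter, had 15437, 11141 and 14724 in vehicle and 34399.5, 20153 and 28588 with TGF-β1, 1.99-fold (adjusted p = 0.00314). The fourth riser, *Col11a1*, was outside the naming rule and is given for completeness, with a change of 0.89 ± 0.17 on the log2 scale. *Col2a1*, the major collagen of cartilage, fell from 714, 517 and 614 to 65.7, 61.9 and 65.9, 9.32-fold (adjusted p = 2.08e-09).

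The chains of type I and III collagen, the bulk of fibrotic matrix, were not called. *Col1a1* had 173503, 109583 and 196011 normalized counts in vehicle and 297374, 118607 and 208787 with TGF-β1. Library B was low and A or C high in both groups, and the groups overlapped. The change was 0.33 on the log2 scale with a 95% confidence interval from -0.50 to 1.15 (adjusted p = 0.533). With the replicate letter as a block it passed at an adjusted p of 0.0251, and with the block and no trend of the variance it did not (0.101). *Col1a2* changed by 0.12 (95% interval -0.43 to 0.67) and *Col3a1* by -0.08 (-0.82 to 0.65), and the sign turned with total-count scaling for *Col1a2* and with TMM scaling for *Col3a1*.

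Among 11 other collagens tested, 2 rose, 4 fell and 5 were not called, with a median of -0.31. That was 54.5% called against 48.2% of all genes, and 50% against 43.5% without *Col14a1*, set apart by the limit. *Col7a1*, the collagen of anchoring fibrils, went from 5.86, 10.6 and 10.6 to 47.9, 58.5 and 56.1 (5.65-fold). It met the limit only with the help of its TGF-β1 libraries, so no p is given. The chains of the beaded collagen VI did not all move the same way. *Col6a1* had 14569, 10753 and 17062 in vehicle and 8766, 3282 and 5878 with TGF-β1 (log2 -1.33 ± 0.36, adjusted p = 0.00679). *Col6a2* had 4580.4, 2787 and 4002 and 2463, 900.2 and 1439 (log2 -1.33 ± 0.37, adjusted p = 0.00818). *Col6a3* had 11036, 7520.3 and 11069 and 23193, 13167 and 17719 (log2 0.85 ± 0.29, adjusted p = 0.0263), so that its libraries were higher with TGF-β1 where those of the other 2 chains were lower, although its call was lost without vehicle B (adjusted p = 0.115), TGF-β1 A or TGF-β1 C. *Col14a1*, a fibril-associated collagen, went from 19.9, 17 and 26.5 to 0, 0 and 1.22, at least 6.13-fold lower.

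**Figure D3:**
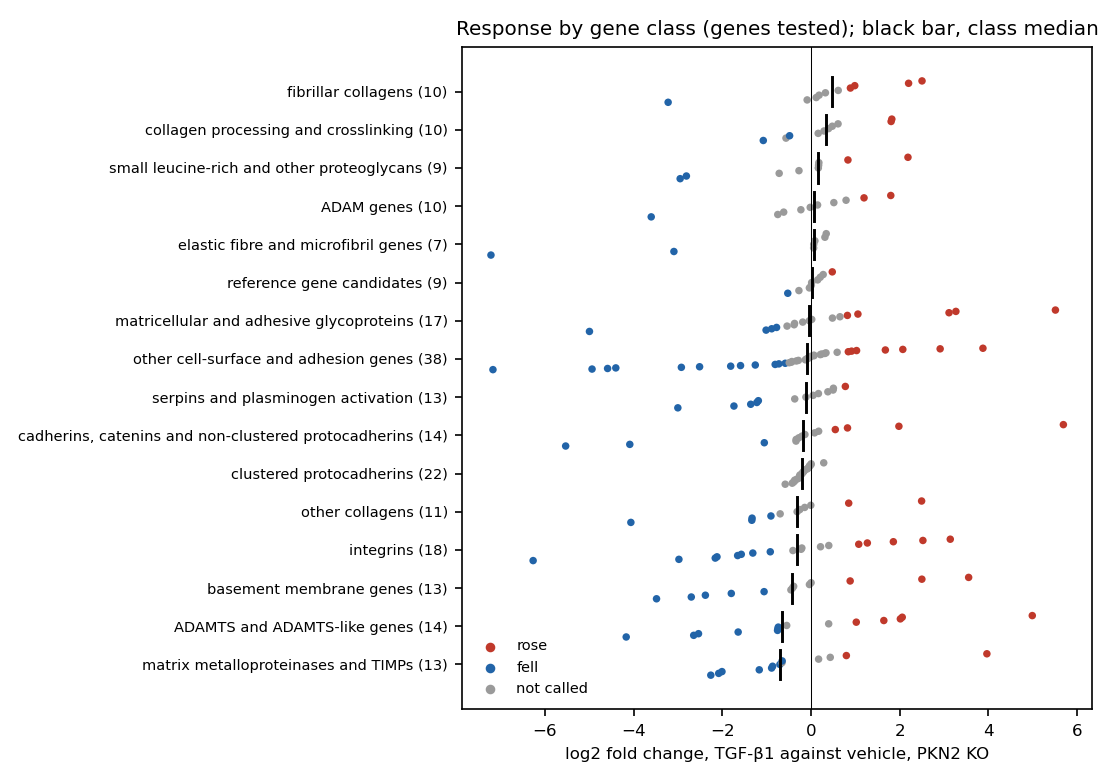
Log2 fold change with TGF-β1 in PKN2 KO PSCs (horizontal axis) for each gene tested, by gene class, with the number of genes tested in parentheses and a black bar at the class median. The medians run from -0.70 for matrix metalloproteinases and TIMPs to 0.47 for fibrillar collagens, and most classes hold genes that rose and genes that fell.

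The enzymes that process and crosslink collagen gave 2 risers, 2 fallers and 6 genes not called among 10, with a median of 0.35. Called genes made up 40%, against 48.2% of all genes. *Plod2*, the lysyl hydroxylase of collagen telopeptides, rose 3.54-fold, from 1829.6, 1483 and 1666 to 7291, 4936 and 5599 (adjusted p = 5.83e-06). *Pxdn*, the peroxidase that crosslinks collagen IV, rose 3.5-fold, from 1329, 1133 and 1346 to 5277, 4055 and 4085 (adjusted p = 1.41e-06). *Pcolce*, an enhancer of procollagen cleavage, fell 2.11-fold, from 30363, 22516 and 32251 to 17411, 9404 and 14424 (adjusted p = 0.00345). *Lox*, the lysyl oxidase itself, had 16575, 12218 and 16482 in vehicle and 29112, 17385 and 23551 with TGF-β1. Its libraries did not overlap between groups, but the change of 0.61 ± 0.27 missed the threshold without the block (adjusted p = 0.0771) and passed it with the block and no trend (0.000868). It also passed under each of the 3 other scalings (0.00142 to 0.00735).

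Basement membrane genes gave 3 risers and 5 fallers among 13, 61.5% called against 48.2% of all genes, with a median of -0.42. Without *Col4a6* and *Lamb3*, 6 of 11 were called (54.5% against 43.5%). *Col18a1*, the precursor of endostatin, went from 1108, 519 and 942 to 7252, 2968 and 4602 (5.67-fold, adjusted p = 0.000136). *Lamb1*, a laminin chain of many tissues, went from 4092, 3061 and 4179 to 8594, 5605 and 6852 (log2 0.89 ± 0.21). In the other direction, *Nid1*, which links laminin to collagen IV, went from 13677, 9261 and 13152 to 4514, 2513 and 3505 (log2 -1.80 ± 0.29, adjusted p = 0.00012). *Lamb2* went from 2898, 3167 and 2881 to 1324, 1424 and 1559 (log2 -1.06 ± 0.21), opposite in sign to *Lamb1*. *Col4a6*, set apart by the limit as was *Lamb3*, went from 25.8, 33.2 and 43.5 to 1.37, 2.58 and 2.44, at least 9.9-fold lower.

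Elastic fibre and microfibril genes gave 2 fallers and 5 genes not called among 7, with a median of 0.06. That was 28.6% called against 48.2% of all genes. Beside *Efemp1*, *Fbln5*, a fibulin needed for elastic fibre assembly, fell 8.52-fold from 2345, 1599 and 2477 to 332, 181 and 247 (adjusted p = 7.02e-07). The 5 genes not called had changes of 0.06 to 0.35, so *Efemp1* and *Fbln5* stood far below the rest of the class. The rest included other fibulins, outside the naming rule, with *Fbln1* at 0.06, *Fbln2* at 0.09 and *Efemp2* at 0.06.

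Small leucine-rich and other proteoglycans bind collagen fibrils and growth factors. Of 9 tested, 2 rose and 2 fell, 44.4% called against 48.2% of all genes, with a median of 0.17. Without *Dcn*, 3 of 8 were called (37.5% against 43.5%). *Fmod*, fibromodulin, went from 78.5, 28.3 and 57.2 to 376, 146 and 231 (4.56-fold, adjusted p = 0.00143), and *Gpc1*, a glypican, from 320.0, 213 and 302 to 562, 415 and 504 (1.78-fold, adjusted p = 0.00187). *Dcn*, decorin, one of the genes set apart by the limit, went from 35.2, 15.5 and 55.1 to 2.74, 3.44 and 4.88. *Prelp*, which anchors basement membranes to collagen, fell from 3204, 2325 and 3379 to 654, 256 and 323 (7.73-fold, adjusted p = 7.7e-06). *Bgn*, biglycan, was not called at 0.17 (95% interval -0.38 to 0.73).

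Matricellular and adhesive glycoproteins modulate cell-matrix contact. Of 17 tested, 5 rose and 4 fell, 52.9% called against 48.2% of all genes, with a median of -0.04. Without *Tnxb*, set apart by the limit, 8 of 16 were called (50% against 43.5%). *Tnc*, tenascin C of remodelling tissue, went from 973, 858 and 909 to 9382, 7171 and 10162, 9.65-fold (log2 3.27 ± 0.22, adjusted p = 3e-08), while *Tnxb*, tenascin X, chosen through its vehicle libraries, went from 200.4, 149 and 171 to 5.47, 4.3 and 3.66. *Edil3*, a secreted integrin ligand, rose 8.67-fold from 70.3, 48.8 and 65.7 to 709, 416 and 520.0 (adjusted p = 8.57e-07). *Ecm1*, a matrix glycoprotein of skin and vessels, fell from 4988, 3523 and 5061 to 3242, 2256 and 2428 (adjusted p = 0.0084). *Fn1*, fibronectin, was not called at -0.18 (95% interval -0.96 to 0.59), with 46203, 31630 and 49529 in vehicle and 51198, 24367 and 39540.4 with TGF-β1.

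Integrins, the receptors that tie cells to the matrix, gave 5 risers and 8 fallers among 18, 72.2% called against 48.2% of all genes, with a median of -0.31. The 18 include *Itgbl1*, an integrin-like gene and no receptor chain, which was not called. The limit set 4 of the 18 apart, and of the other 14 genes 9 were called, 64.3% against 43.5% of the 209 genes. Of the 4, *Itga2*, a collagen-receptor subunit, went from 5.86, 6.36 and 2.12 to 52, 47.3 and 41.5, and *Itga11*, a subunit of another collagen receptor, was at least 44.4-fold lower. *Itgb3*, a subunit of the vitronectin receptor, went from 83.2, 82.7 and 122 to 791, 378 and 550.5 (5.76-fold, adjusted p = 5.71e-05). The fibronectin-receptor subunit *Itga5* went from 3606, 3695 and 3328 to 16240.2, 10322 and 12654 (3.63-fold, adjusted p = 1.88e-06). Its partner *Itgb1* went from 17008, 10641 and 16405 to 44024, 21354 and 29777 (2.11-fold, adjusted p = 0.00877). The laminin-receptor subunits *Itga3* and *Itga6* fell, from 456, 377 and 427 to 98.5, 99.7 and 89.1 (adjusted p = 1.53e-07) and from 1598, 1129 and 1528 to 879.5, 659 and 707 (adjusted p = 0.00281).

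Among 14 cadherins, catenins and non-clustered protocadherins, 4 rose and 3 fell, 50% called against 48.2% of all genes, with a median of -0.17. *Cdh26* and *Pcdh9*, 2 of the fallers, were set apart by the limit, and of the other 12 genes 5 were called (41.7% against 43.5%). *Cdh11*, the cadherin of mesenchymal cells and myofibroblasts, went from 1500.2, 971 and 1356 to 7141, 3517 and 4882 (3.96-fold, adjusted p = 6.6e-05), beside the much larger rise of *Cdh6*. *Pcdh9*, a protocadherin, went from 73.8, 68.5 and 59.4 to 1.37, 6.88 and 2.44 and was chosen through vehicle alone. *Cdh23*, known from the hair cells of the ear, went from 59.8, 67.8 and 36 to 28.7, 23.2 and 23.2 (adjusted p = 0.0084). None of 22 clustered protocadherins, all of the gamma cluster, was called by limma, edgeR or DESeq2, and none had an unadjusted p under 0.05 in any of them. Their changes ran from -0.58 to 0.29. These genes share exons and near-identical sequence, so their reads may be split between them and single values are uncertain. With the replicate block 3 were called, all lower, and 2 were called after scaling to the total count.

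Other cell-surface and adhesion genes gave 7 risers and 12 fallers among 38, 50% called against 48.2% of all genes, with a median of -0.09. Without *Amigo2*, *Cd34*, *Entpd1* and *Selp*, set apart by the limit, 15 of 34 were called (44.1% against 43.5%). *Alcam*, an immunoglobulin-type adhesion molecule, went from 515, 418 and 518 to 4069, 3332 and 3545 (7.54-fold, adjusted p = 8.4e-09) and *Ncam1*, the neural cell adhesion molecule, from 1525, 1199.8 and 1756 to 7520.3, 5203 and 6128 (4.21-fold, adjusted p = 2.79e-06). *Cd44*, the hyaluronan receptor, went from 8157, 7832 and 9057 to 18697, 12807 and 16280 (1.89-fold, adjusted p = 0.00143). *Vcam1*, a ligand for leukocyte integrins, went from 681, 618 and 683 to 27.4, 22.4 and 45.2 (21.1-fold lower, adjusted p = 7.33e-09). *Lgals3*, galectin 3, went from 18947, 12890.4 and 20279 to 6567, 4893 and 5677 (3.01-fold lower, adjusted p = 1.27e-05). In each of these genes the libraries of the groups did not overlap, which the naming rule required of *Alcam* and *Vcam1*. The others were named because they were called, which makes overlap unlikely. In 52.6% of all genes tested the groups did not overlap.

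ADAMTS and ADAMTS-like genes, secreted proteases and their relatives that cleave or bind matrix proteins, gave 5 risers and 7 fallers among 14, 85.7% called against 48.2% of all genes, with a median of -0.64. Without *Adamts9*, set apart by the limit, 11 of 13 were called (84.6% against 43.5%). *Adamts5*, an aggrecan- and versican-degrading protease, went from 1162, 993 and 1538 to 95.7, 46.4 and 65.9 (18-fold lower, adjusted p = 1.34e-08), while *Adamts12* went from 466, 541 and 396 to 1373, 1823 and 1228 (3.13-fold higher, adjusted p = 5.51e-05). The procollagen N-proteinases *Adamts2* and *Adamts14* both fell, from 1758, 1410.4 and 1830.3 to 1101, 853 and 1009 (adjusted p = 0.00278) and from 155, 144 and 150.5 to 49.2, 43 and 50 (adjusted p = 1.34e-05). The aggrecanase *Adamts4*, outside the naming rule and added after its values were seen, went from 195, 191 and 199 to 941, 704 and 819, opposite to *Adamts5*.

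Among 10 ADAM genes, which encode membrane-bound proteases that shed cell-surface proteins, 2 rose and 1 fell, with a median of 0.07. That was 30% called against 48.2% of all genes, and 22.2% against 43.5% without *Adam33*. *Adam12*, known from activated fibroblasts, went from 477, 433 and 380.5 to 1961, 1251 and 1365 (3.49-fold, adjusted p = 1.62e-06) and *Adam19* from 124, 207 and 137 to 358, 381 and 315 (2.29-fold, adjusted p = 0.00049). The faller, *Adam33*, was set apart by the limit and went from 28.1, 74.2 and 57.2 to 1.37, 7.74 and 2.44.

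Matrix metalloproteinases and their TIMP inhibitors gave 2 risers and 8 fallers among 13, 76.9% called against 48.2% of all genes, with a median of -0.70. Without *Mmp9* and *Mmp15*, set apart by the limit, 8 of 11 were called (72.7% against 43.5%). *Mmp9*, a gelatinase, had 2.34, 1.41 and 0 in vehicle, at most 2 reads, and 21.9, 28.4 and 45.2 with TGF-β1, at least 10.8-fold higher. *Timp2* went from 13359, 9259 and 13302 to 6934, 4009 and 5248 (2.24-fold lower, adjusted p = 0.00186). *Timp1* was not called at 0.17 (95% interval -0.24 to 0.59).

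Of 13 serpins and plasminogen activation genes tested, 5 fell, where 28.5% of all genes did, with a median of -0.11. *Plau*, the urokinase plasminogen activator, went from 625, 541 and 713 to 334, 203 and 279.5 (2.33-fold lower, adjusted p = 0.000412). *Serpinb1a*, an inhibitor of neutrophil proteases, went from 817, 637 and 862 to 114, 75.7 and 98.9 (8.01-fold lower, adjusted p = 1.01e-05). Of the 9 reference gene candidates, from which the normalization factors can be rebuilt, *Map3k2* rose by 0.48 (adjusted p = 0.023) and *Thap3* changed by -0.52 (adjusted p = 0.0198), and the other 7 were not called. *Map3k2* lost its call without vehicle B or C or TGF-β1 B or C (0.0526 to 0.0719) and with total counts (0.412). *Thap3* lost it without vehicle C or TGF-β1 C (0.0856 and 0.0595) and under the 3 other scalings (0.0527 to 0.171).

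The calls of 10 named genes rested on single libraries. *Adamtsl5* (adjusted p = 0.0393) lost its call without any 1 of the 6 PKN2 KO libraries, at adjusted p from 0.0743 to 0.0941. *Adamts6* (0.0376) lost it without vehicle A or C or TGF-β1 B or C, at 0.0885 to 0.124. These 2 genes also lost it under each of the 3 other scalings. *Ctnnb1*, β-catenin (0.0393), and *Mmp14*, a membrane-type collagenase (0.0453), lost it without vehicle A, B or C, TGF-β1 A or C, WT vehicle C or WT TGF-β1 C, at 0.057 to 0.147 and 0.0517 to 0.197. *Cd9*, a tetraspanin (0.0393), lost it without vehicle A or C, TGF-β1 B, WT vehicle C or WT TGF-β1 C, at 0.0563 to 0.16. The chain *Col6a3* (0.0263) lost it without vehicle B or TGF-β1 A or C, at 0.0669 to 0.115. *Thbs2*, a thrombospondin (0.0268), lost it without vehicle A or B or TGF-β1 A or C, at 0.0515 to 0.123. *Timp3* (0.0145) lost it without vehicle A or C or TGF-β1 B, at 0.0515 to 0.0685. *Spp1*, osteopontin (0.0132), lost it without vehicle C or TGF-β1 B, at 0.0597 and 0.0613. *Loxl1*, a lysyl oxidase-like enzyme (0.0113), lost it without TGF-β1 C, at 0.0702, and with TMM scaling. Of these genes *Adamts6*, *Col6a3*, *Ctnnb1*, *Mmp14* and *Thbs2* were higher with TGF-β1 and the other 5 lower.

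A list of 22 known TGF-β1 targets in fibroblasts was read in the same libraries. *Comp* was under the limit and 21 were tested. Of these 4 rose (among them *Adam12*, *Plod2* and *Tnc*), 3 fell (*Itga11*, *Dcn* and *Timp3*) and 14 were not called, with a median of 0.17 against -0.13 for all genes, of which 48.2% were called. *Itga11* and *Dcn* were set apart by the limit. In WT PSCs 10 of the 21 rose and 2 fell, with a median of 0.59 against 0.01 for all genes, of which 24.1% rose and 50.9% were called. Of the 21, 3 passed the test of the difference between genotypes. *Postn*, periostin, had 15993, 11499.8 and 16419.9 in vehicle and 29891, 16027 and 24613 with TGF-β1 and *Thbs1* had 9211, 8163 and 8106 and 15110.4, 9320 and 11887. Their changes were 0.66 ± 0.28 and 0.49 ± 0.22, with adjusted p of 0.0683 and 0.0926 without the replicate block and 0.000851 and 0.00818 with the block and no trend. Both passed under each of the 3 other scalings, *Postn* at 0.000751 to 0.00631 and *Thbs1* at 0.00042 to 0.0416. *Loxl2* and *Tgfbi* had changes of -0.56 and -0.38 and passed at 0.0143 and 0.0414 with the block and no trend, against 0.248 and 0.302 without it. The changes of the other targets not called ran from -0.18 (*Fn1*) to 0.61 (*Lox*).

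In WT PSCs, 55 (24.1%) of the same 228 genes rose with TGF-β1 and 61 (26.8%) fell, 50.9% in all. Of the 45 genes that rose in PKN2 KO, 41 also rose in WT (91.1% of the PKN2 KO list and 74.5% of the WT list). Of the 65 that fell, 55 also fell in WT (84.6% and 90.2%), and none was called in opposite directions. The shared lists include genes set apart by the limit, whose PKN2 KO direction was fixed, and the limit used PKN2 KO libraries alone. A call in 1 genotype alone is not a difference between them, and the difference itself was tested as an interaction term.

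**Figure D4:**
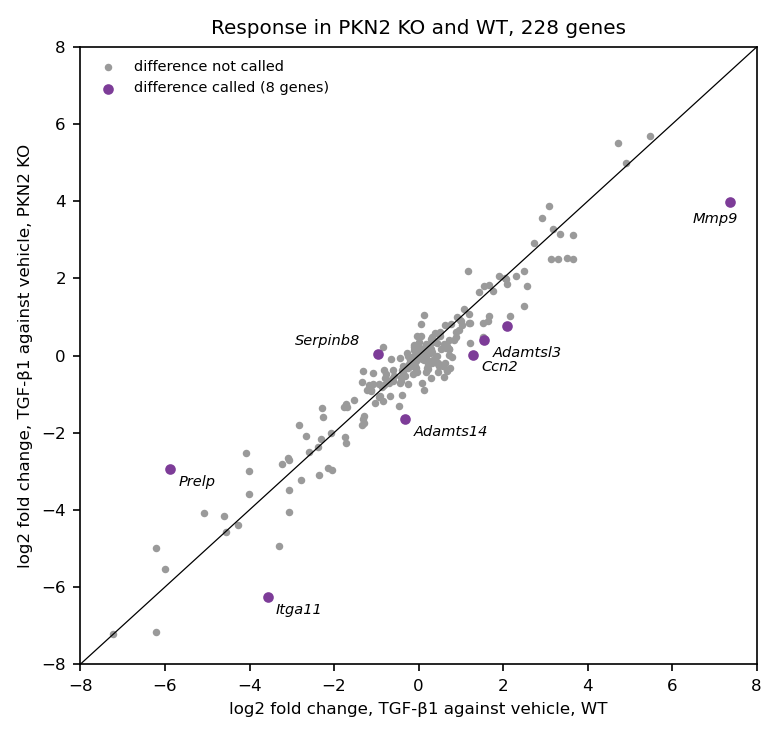
Log2 fold change with TGF-β1 in PKN2 KO PSCs (vertical axis) against that in WT PSCs (horizontal axis), 1 point per gene tested, with the line of equal response. The 8 genes with a called difference, in purple, stand off the line, and those described in the text are named.

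The response differed in 8 of the 228 genes (3.51%), and 23 had an unadjusted p under 0.05. *Mmp9* and *Itga11*, set apart by the limit, count among the 8. With the replicate block 42 were called, and with the block and no trend 20, each including the 8. *Ccn2*, which encodes CTGF, a matricellular protein, had 25506, 24112 and 21302 normalized counts in PKN2 KO vehicle and 27421, 19487 and 25482 with TGF-β1, against 16769, 25375 and 25292 and 56006, 47181 and 58592 in WT. The PKN2 KO groups overlapped and the WT groups did not. *Mmp9* reached 284, 149 and 214 in WT, from 0, 0 and 0.986, above all PKN2 KO libraries. *Adamtsl3* had 377, 354 and 340.2 and 546, 426 and 450.4 in PKN2 KO and 275, 180.4 and 208 and 747, 537 and 663 in WT, where the vehicle libraries were lower and the TGF-β1 libraries mostly higher than in PKN2 KO.

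Another 4 differences were in genes that fell in at least 1 genotype. *Itga11* had 127, 75.7 and 111 in WT vehicle and 9.44, 5.53 and 8.65 in WT with TGF-β1, so that it fell in both genotypes and further in PKN2 KO. *Adamts14* had 186, 218 and 159 and 149, 133 and 170.1 in WT, overlapping, where PKN2 KO fell. *Prelp* had 1279, 591 and 970.2 and 21.2, 11.9 and 11.5 in WT, a deeper fall than in PKN2 KO. *Serpinb8*, an intracellular protease inhibitor, had 793, 796 and 831 and 979, 813 and 731 in PKN2 KO and 391, 427 and 444 and 198, 219.7 and 232 in WT, where it fell.

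**Figure D5:**
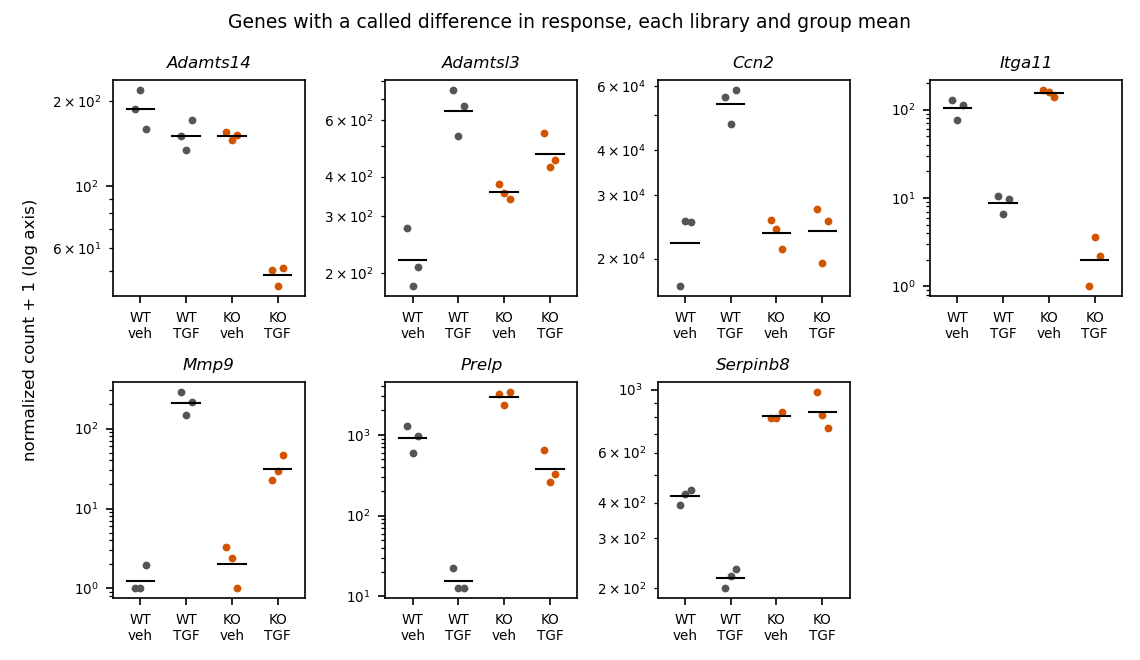
Normalized count + 1 (log axis) in each of the 12 libraries for 7 of the 8 genes whose TGF-β1 response differed, with WT in gray, PKN2 KO in orange and a bar at each group's mean on the log scale. *Ccn2* is level between the PKN2 KO groups and higher with TGF-β1 in WT.

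These 8 calls depended on single libraries. Without PKN2 KO vehicle B none of the 228 genes was called by limma (20 had an unadjusted p under 0.05), nor without WT TGF-β1 C (16). Without PKN2 KO vehicle A, vehicle C or TGF-β1 C the counts were 1, 2 and 3, and without WT vehicle C or WT TGF-β1 A they were 2 and 1. With the other 5 libraries left out in turn 6 to 11 were called. The direction of all 8 differences was the same in the 12 fits. edgeR called 7 genes, all among the 8, and DESeq2 11, which included the 8, while scaling to the total count called 8, of which 4 were the same.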

How the data were processed

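Targeted RNA sequencing of 12 libraries was analysed. Raw counts were deposited beside normalized counts, a signal the authors made by dividing the counts of each library by 1 factor (0.731 to 1.48). The submitters' processing notes name STAR, DESeq2 1.32 and mm10. Raw columns under a repeated name (6) could not be tied to labels and were not used, so limma 3.58.1 on log2(normalized count + 1) replaced a count test, with lmFit, eBayes with trend and robust estimation, 4 group means and Benjamini-Hochberg adjustment over 228 genes. Multiplying by the factors gave whole reads (within 0.001) for 100% of values, equal to the deposited raw counts of all 420 genes in the 6 uniquely named columns. These reads were used for other scalings, edgeR 4.0.16 and DESeq2 1.42.0.

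Same-letter PKN2 KO vehicle and TGF-β1 libraries had correlations of deviations from their group means of 0.38 (A), 0.64 (B) and 0.11 (C), so the letter, from the labels, was also fitted as a block. Over the 18 same-letter pairs of the 4 groups these ran from -0.16 to 0.73. The named genes were, in each direction, up to 15 called genes of largest change whose groups were separate, every known target listed, up to 5 differences from WT, and per class up to 2 called genes with the highest counts. Of these, 1 gene is not reported here, although counts over all genes and lists include it. Members and lists were chosen with earlier results of these data known. Alternatives were other scalings, tests, filters, pseudocounts of 0.5 and 5, and leaving out each library. The fit was tested on simulated data. Intervals and floors cover counting error or the spread between libraries only.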

Additional observations from a re-analysis of the deposited data

Results flagged for a closer look

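In 8 genes the TGF-β1 response of PKN2 KO PSCs differed from that of WT PSCs by the interaction term of limma, at a Benjamini-Hochberg adjusted p under 0.05 over 228 genes. Values are the PKN2 KO change minus the WT change on the log2 scale, with a 95% confidence interval. Of the 8, 6 were negative. *Mmp9* had a difference of -3.41 and *Itga11* of -2.69, given as a description with no p or interval, although both count among the 8. For both, 1 or more groups had at most 3 reads per library, so the size of the fitted difference depends on the pseudocount and is no bound. Both also reached the limit in 1 PKN2 KO group alone, which fixed the direction of their PKN2 KO change. *Adamts14* had a difference of -1.33 (-1.97 to -0.69), *Ccn2* of -1.26 (-1.94 to -0.59) and *Adamtsl3* of -1.16 (-1.72 to -0.59), with adjusted p of 0.025, 0.0371 and 0.025.

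The difference was positive in *Prelp*, at 2.93 (1.85 to 4.02, adjusted p = 0.0114), and in *Serpinb8*, at 1.01 (0.56 to 1.45, adjusted p = 0.025). Among the 12 fits that left out 1 library each, *Prelp* was called in 10, *Serpinb8* in 6, *Adamts14* in 5, *Adamtsl3* in 4 and *Ccn2* in 3. Over those fits the difference of *Ccn2* ran from -1.36 to -1.07 and that of *Prelp* from 2.54 to 3.24.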

How the results depend on the processing

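The counts of 45 risers and 65 fallers stayed within 1.5 times their value under every alternative but 2. These were added after seeing the data, as were the fits without 1 WT library. The replicate block with TMM scaling gave 75 risers and 71 fallers, and the block with total-count scaling 52 and 109. The replicate block alone gave 62 and 83, and included all 110 called genes. TMM scaling gave 64 and 63, total-count scaling 45 and 83, edgeR 45 and 65, DESeq2 49 and 64, no filter 48 and 80, and a count of at least 10 in all 6 PKN2 KO libraries 37 and 48. Leaving out 1 library gave 38 to 48 risers and 55 to 65 fallers, and 90 of the 110 genes were called without each of the 6 PKN2 KO libraries. Of risers and fallers together, risers made up 40.9%, 50.4% with TMM and 35.2% with total counts. The 8 differences from WT became 42 with the replicate block, 20 with the block and no trend, 35 with the block and TMM and 36 with the block and total counts, and 0 to 11 without 1 library. DESeq2 gave 11, and the 6 PKN2 KO libraries alone hold no WT group and gave no such value (42 risers and 63 fallers). Over the 4 groups, same-letter correlations ran from 0.38 to 0.73 for A and B and from -0.16 to 0.16 for C. Whether the letters pair the libraries cannot be settled from these values. The block's p-values with a trend are very small, as limma then estimated a median of 519 prior degrees of freedom, against 5.65 without the block and 2.66 with the block and no trend.

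Among the 71 called genes named, no value changed sign. Of the 16 named genes not called, 14 passed the threshold under at least 1 alternative and 9 changed sign. With total counts, with or without the replicate block, *Bgn* had -0.024, *Ccn2* -0.179, *Col1a2* -0.078, *Col5a1* -0.013, *Serpinb8* -0.147, *Timp1* -0.024 and *Vcan* -0.018. With TMM scaling, with or without the block, *Col3a1* had 0.057. Without 1 library *Bgn* ran from -0.014 to 0.389, *Ccn2* from -0.081 to 0.165, *Col1a2* from -0.068 to 0.31, *Col3a1* from -0.344 to 0.237, *Fn1* from -0.425 to 0.11 and *Serpinb8* from -0.065 to 0.146. The cause was not tested. With 3 libraries a group, an exact permutation test cannot go below p = 0.1, and genes near 10 normalized counts rest on about 10 reads, where small changes were not detectable.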

Other observations

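Some genes under the limit, which entered no comparison, had reads in vehicle and none with TGF-β1 in PKN2 KO PSCs. *Mmp27*, a metalloproteinase, had 8.2, 13.4 and 11.7 normalized counts in vehicle and no read in the 3 TGF-β1 libraries. *Comp*, a cartilage matrix protein, had 3.52, 2.83 and 11.7 in vehicle and likewise no read with TGF-β1. *Icam1*, a ligand for leukocyte integrins, had 15.2, 6.36 and 13.8 against 0, 1.72 and 0. These genes were chosen after their values were seen and were not tested.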
